A study of Mus musculus with 8 samples.

Results

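The clustered protocadherins are neighbouring genes of cell surface adhesion proteins, and they were taken here as every row of the deposited table whose gene name carries a Pcdha, Pcdhb, Pcdhga, Pcdhgb or Pcdhgc number or the Pcdhac type. The rule found 58 of 20793 rows. They were 14 genes of the alpha cluster (12 alternate genes, Pcdhac1 and Pcdhac2), 22 of the beta cluster and 22 of the gamma cluster (12 of type A, 7 of type B and 3 of type C). RNA was sequenced from 8 libraries of mouse brain neural progenitor cells of the strain FvB/C57BL/6, and each value is in FPKM, a count of fragments scaled by transcript length and by library size. A library was either proliferating, in N2 medium with 20 ng/ml of EGF and of bFGF, or differentiating, in neurobasal medium with B27 for 5 days. Every library carried hairpins, targeted at FUBP1, targeted at CIC, or non-targeted (NT), and per the labels' protocols, which describe the FUBP1 hairpins only, these came from lentivirus with 3 days of puromycin selection. The proliferating libraries were TRC and GFP (both NT), FUBP1 and CIC, and the differentiating ones were those named 7 and GFP-D (both NT), FUBP1-D and CIC-D. The labels do not state whether the 2 NT libraries of a state came from separate cultures, and each knockdown had 1 library per state. The p-values below therefore reflect only how these libraries vary, and that variation may be technical. Values of several libraries are given in the order TRC, GFP, FUBP1 and CIC for the proliferating state and 7, GFP-D, FUBP1-D and CIC-D for the differentiating state.

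In the alpha and gamma clusters each variable exon has a promoter of its own and is spliced to constant exons shared by the whole cluster, while each beta gene is a separate coding exon. Single neurons are known to use a small and seemingly random set of the alternate promoters, under DNA methylation and looping by CTCF and cohesin, whereas the C-type genes are used more uniformly. The proteins bind copies of themselves on other membranes, and this matching lets the branches of a neuron tell self from non-self. FUBP1 binds single-stranded nucleic acids and takes part in transcription and splicing, and CIC represses transcription.

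All 58 genes lay on chromosome 18 (build mm9). The alpha cluster spanned positions 37089939 to 37347314, the beta cluster 37424652 to 37681073 and the gamma cluster 37821599 to 38001526, counted from 1. The 14 alpha rows ended at 2 positions and the 22 gamma rows at 3, at the shared constant exons, while the 22 beta rows had 22 separate ends. In GENCODE M21 transcripts matched by their RefSeq identifiers (58 of 58), 48.2% to 63.9% of the 50-base windows of an alpha transcript also occurred in another member, with a median of 60.0%. For gamma the share ran from 20.1% (Pcdhgb8) to 54.6% (Pcdhgb2), with a median of 44.8%, and for beta from 0% to 11.99% (Pcdhb12), with a median of 4.26%. A fragment from a constant exon therefore names the cluster and not the gene, and how such fragments were assigned is not given in the sources used here. Values of single alpha and gamma genes are uncertain for that reason, beta values less so. A separate row, Pcdha4-g, that spans from the alpha to the gamma cluster reached at most 0.151 FPKM and was not counted as a member.

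The targeted genes were compared in every library. Fubp1 stood at 50.2, 12.4, 34.8 and 34.8 FPKM in the proliferating libraries and at 24.8, 25.4, 21.6 and 26.9 FPKM in the differentiating ones. The NT library GFP thus held less Fubp1 than the library labelled FUBP1. Cic stood at 39.4, 33.8, 49.5 and 13.3 FPKM and then at 42.0, 35.3, 32.1 and 25.6 FPKM, lowest within each state in the library labelled CIC. Of 12 progenitor markers, 9 reached 1 FPKM in all 8 libraries. The summed level of 10 astrocyte markers lay at 320 to 402 FPKM in the proliferating libraries and at 1046 to 1495 FPKM in the differentiating ones, and that of 10 neuronal markers at 31.3 to 311 and 42.2 to 63.0 FPKM, with 5 of the 10 under 1 FPKM in every library. The sum of 8 oligodendrocyte lineage markers lay at 53.7 to 111 and 121 to 284 FPKM, with 3 of the 8 under 1 FPKM in every library. Not every astrocyte marker followed the astrocyte sum. Gja1 measured 211, 56.8, 120 and 57.2 FPKM and then 82.3, 115, 274 and 49.9 FPKM. Sums for microglia (7 markers, up to 1.70 FPKM), endothelium (5 markers, up to 0.278 FPKM, Cldn5 at 0) and mesenchyme (7 markers, up to 7.54 FPKM) were low. In bulk RNA, fewer cells that express a gene and less of its RNA per cell cannot be told apart.

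Of the 58 genes, 9 reached 1 FPKM in all 8 libraries, 28 in some libraries and 21 in none. The 9 were Pcdhac2, Pcdhb16, Pcdhb17, Pcdhb18, Pcdhb20, Pcdhb21, Pcdhb22, Pcdhgb2 and Pcdhgc3. Among the 37 genes that reached 1 FPKM anywhere, 75.7% did so only in some libraries, and over the 12385 rows of the table that did so the share was 20.2%. This share depends on how near a gene lies to the threshold. Some members lay close to it throughout, such as Pcdhb11 (0.801 to 3.00 FPKM) and Pcdhb15 (0.777 to 3.87 FPKM). The 3 clusters differed in level per length. Alpha sums ran from 5.78 to 12.9 FPKM, beta sums from 24.4 to 80.2 FPKM and gamma sums from 206 to 721 FPKM. The heat map of all members shows these layers. Alpha is dark except Pcdhac2, beta is low and uneven along the cluster, and gamma is split between 1 constantly high gene and a patchwork of others.

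**Figure D1:**
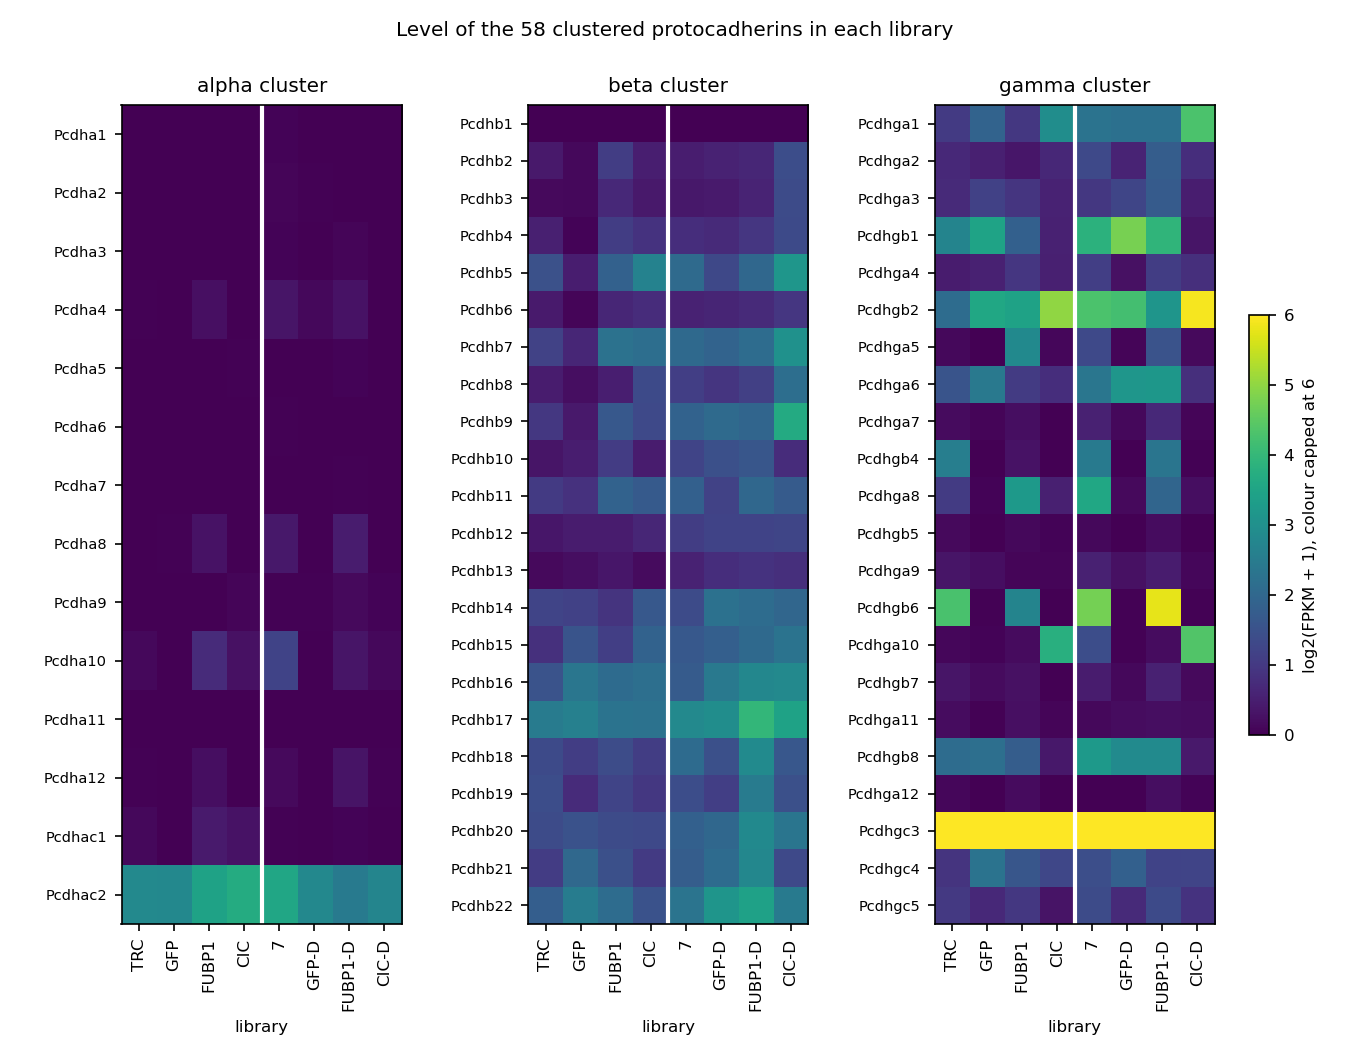
Level of each of the 58 genes (rows, in order along each cluster) in each of the 8 libraries (columns, proliferating left of the white line and differentiating right), as log2(FPKM + 1) with the colour capped at 6. Pcdhac2 is the alpha gene at 1 FPKM or more in all 8 libraries, Pcdhgc3 lies above the cap everywhere, and gamma A and B genes such as Pcdhgb6 and Pcdhga10 switch between high and near 0 from library to library.

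The alpha cluster was nearly silent apart from Pcdhac2, a C-type gene known for the spacing of serotonergic axons. Pcdhac2 measured 6.11, 5.99, 9.99 and 11.9 FPKM in the proliferating libraries and 10.7, 5.99, 4.46 and 5.62 FPKM in the differentiating ones, which was 76.4% to 99.0% of the alpha sum. Its states overlapped, and the library named 7 lay among the highest. None of the 12 alternate alpha genes reached 1 FPKM in more than 1 library. Pcdha10, at 1.30 FPKM in the library named 7 and 0.659 FPKM in FUBP1, was the highest of them, and its other 6 libraries lay at 0.260 FPKM or below. Pcdha8 stayed at or below 0.371 FPKM and the other C-type gene, Pcdhac1, at or below 0.356 FPKM (in FUBP1). Of the 112 alpha values, 60 were above 0 but under 1e-06 FPKM. Such values are read here as no measurable level. The mean alpha sum was 9.12 ± 3.39 FPKM (SD, n = 4) in proliferating and 7.67 ± 3.51 FPKM (SD, n = 4) in differentiating libraries, a difference within the spread.

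The beta cluster was used broadly and at low levels. Of its 22 genes, 6 reached 1 FPKM in all 8 libraries and 13 in some, and the highest single value was 14.8 FPKM (Pcdhb17 in FUBP1-D). Pcdhb1, the first gene of the cluster, was listed at 0 in every library. The number of beta genes at 1 FPKM or more was 11, 8, 15 and 13 in the proliferating libraries and 16, 15, 16 and 18 in the differentiating ones. The mean beta sum was 30.9 ± 5.91 FPKM in proliferating and 62.9 ± 18.9 FPKM in differentiating libraries (SD, n = 4 each), 2.04 times as high, and the lowest differentiating sum (43.7 FPKM, in the library named 7) lay above the highest proliferating one (36.1 FPKM, in CIC). The 3 genes with the highest means were Pcdhb17, Pcdhb22 and Pcdhb16, all in the second part of the cluster. Pcdhb22, the last gene, measured 2.46, 4.77, 3.36 and 1.84 FPKM and then 3.93, 7.72, 9.78 and 4.46 FPKM. Pcdhb16 measured 1.90, 4.11, 3.25 and 3.54 FPKM and then 2.31, 4.42, 5.83 and 6.09 FPKM, with the states overlapping. Both were higher in GFP-D than in the library named 7, the other NT library of that state.

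The beta genes with the largest range over libraries, Pcdhb9, Pcdhb5 and Pcdhb7, lay together in the first part of the cluster. Pcdhb9 measured 0.958, 0.333, 2.12 and 1.51 FPKM and then 2.71, 3.24, 2.90 and 11.7 FPKM. Pcdhb5 measured 1.81, 0.385, 2.64 and 5.34 FPKM and then 3.20, 1.47, 3.03 and 7.94 FPKM. Pcdhb7 measured 1.27, 0.575, 3.81 and 3.46 FPKM and then 3.17, 2.76, 3.36 and 7.25 FPKM. All 3 were highest in CIC-D and lowest in GFP. The split of the cluster after Pcdhb9 was chosen after these values were seen and is given as a description. The 8 genes from Pcdhb2 to Pcdhb9 held 23.2%, 6.35%, 34.8% and 39.1% of the beta sum in the proliferating libraries and 27.8%, 20.9%, 16.4% and 46.3% in the differentiating ones. The share was thus lowest in GFP and highest in CIC-D. CIC-D and FUBP1-D had nearly the same beta sum (78.1 and 80.2 FPKM) but drew it from different genes. CIC-D was above FUBP1-D in 8 of the 8 genes from Pcdhb2 to Pcdhb9 and in 3 of the 13 from Pcdhb10 to Pcdhb22. CIC was above GFP in 8 of 8 and 6 of 13 of them, and CIC-D above GFP-D in 8 of 8 and 9 of 13. Against FUBP1, the proliferating library CIC was not higher throughout the first part. It was lower for Pcdhb2, Pcdhb3, Pcdhb4, Pcdhb7 and Pcdhb9 and higher for Pcdhb5, Pcdhb6 and Pcdhb8.

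**Figure D2:**
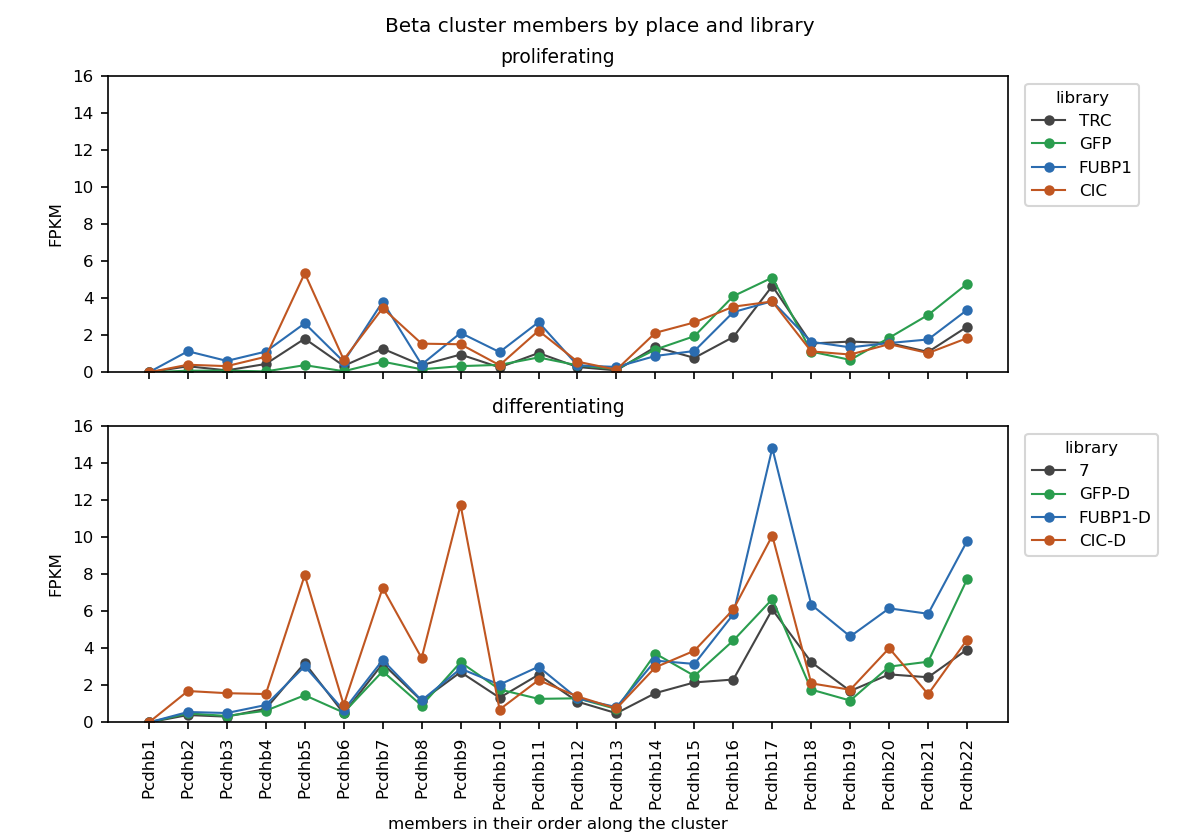
FPKM of the 22 beta genes in their order along the cluster (horizontal axis, not to scale) in the 4 proliferating libraries (upper panel) and the 4 differentiating ones (lower panel), each line being 1 library. CIC-D peaks at Pcdhb5, Pcdhb7 and Pcdhb9 (7.94, 7.25 and 11.7 FPKM), and FUBP1-D lies highest from Pcdhb17 to Pcdhb22.

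In the gamma cluster the C-type gene Pcdhgc3, whose protein is known to bind the Wnt pathway scaffold Axin1, held most of the signal. Pcdhgc3 measured 325, 309, 277 and 150 FPKM in the proliferating libraries and 459, 437, 608 and 473 FPKM in the differentiating ones. That was 72.9% to 88.8% of the gamma sum, the states did not overlap, and CIC was the lowest library. The other C-type genes lay between 0.236 and 3.89 FPKM. Pcdhgc4, known for a role in neuronal survival, measured 0.865, 3.89, 2.04 and 1.42 FPKM and then 1.72, 2.58, 1.31 and 1.35 FPKM, highest in GFP and GFP-D within each state. Pcdhgc5, whose protein is known from inhibitory synapses, measured 1.00, 0.619, 0.971 and 0.236 FPKM and then 1.60, 0.638, 1.55 and 0.853 FPKM. Both genes overlapped between the states. All 22 gamma transcripts share 326 windows of 50 bases. Most gamma transcripts share far more with some other member, at a median of 44.8% of their windows. Pcdhgb8, the shortest (2796 bases), shares the least, at 20.1%. To which gene the fragments from shared windows were assigned is not given in the sources used here.

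Which of the 19 gamma A and B genes were high differed from library to library. Their summed level was 42.3, 34.3, 40.4 and 54.1 FPKM in the proliferating libraries and 98.1, 64.3, 110 and 102 FPKM in the differentiating ones. The lowest differentiating sum lay above the highest proliferating one, with means of 42.8 ± 8.27 and 93.7 ± 20.2 FPKM (SD, n = 4 each). The 2 highest genes held 56.3%, 61.0%, 45.4% and 80.8% of it in the proliferating libraries and 45.3%, 67.8%, 61.4% and 77.8% in the differentiating ones. The share was largest in CIC, with Pcdhgb2 alone at 57.2%, and smallest in the library named 7. The gene with the highest level was Pcdhgb6 in TRC, the library named 7 and FUBP1-D, Pcdhgb1 in GFP-D, and Pcdhgb2 in GFP, FUBP1, CIC and CIC-D. Of the 13 gamma A and B genes that passed the filter on low values (1 FPKM or more in at least 2 libraries), 10 had a range of more than 2 on the log2(FPKM + 1) scale, which was 76.9%. Over the 11968 rows that passed, the share was 25.8%. Over the 18 beta genes that passed it was 16.7%, and over all 35 members that passed 40%.

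Pcdhgb6 had the largest range of all members, 5.75 on the log2(FPKM + 1) scale. Its levels were 18.3, 0.0276, 5.51 and 0.0143 FPKM in the proliferating libraries and 25.7, 0.0207, 53.6 and 0.0216 FPKM in the differentiating ones. It was thus plainly present in TRC, FUBP1, the library named 7 and FUBP1-D, and close to 0 in GFP, CIC, GFP-D and CIC-D, in both states. Pcdhgb4 followed a like pattern, with 4.92 FPKM in TRC, 4.59 FPKM in the library named 7 and 4.04 FPKM in FUBP1-D. It differed in FUBP1, at 0.219 FPKM, and lay at 0.0225 FPKM or less in the GFP and CIC libraries of both states.

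Pcdhga10 was high where Pcdhgb6 was not, in the CIC libraries, and both were near 0 in GFP and GFP-D. The levels of Pcdhga10 were 0.0715, 0.0424, 0.136 and 12.8 FPKM and then 1.68, 0.0210, 0.156 and 19.7 FPKM, so both CIC libraries were high, the library named 7 was intermediate and the other 5 were near 0. Pcdhgb1 measured 5.52, 10.1, 2.60 and 0.476 FPKM and then 13.6, 26.1, 14.1 and 0.260 FPKM, low in both CIC libraries and highest within each state in the GFP-named one. Pcdhgb2 was above 1 FPKM everywhere, at 3.33, 10.8, 10.05 and 30.9 FPKM and then 18.8, 17.5, 7.82 and 59.8 FPKM, highest in both CIC libraries. Pcdhga8 measured 1.08, 0.0401, 8.30 and 0.439 FPKM and then 10.99, 0.116, 2.91 and 0.160 FPKM. Pcdhga5 measured 0.0861, 0.0141, 6.22 and 0.0726 FPKM and then 1.497, 0.0614, 1.90 and 0.107 FPKM. Both were high in FUBP1, FUBP1-D and the library named 7. Pcdhga5, Pcdhga8 and Pcdhgb4 were chosen after their values were seen. At the quiet end, Pcdhga7, Pcdhgb5, Pcdhga9, Pcdhgb7, Pcdhga11 and Pcdhga12 stayed under 1 FPKM in all 8 libraries, with 0.618 FPKM (Pcdhga7 in FUBP1-D) as their highest value.

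**Figure D3:**
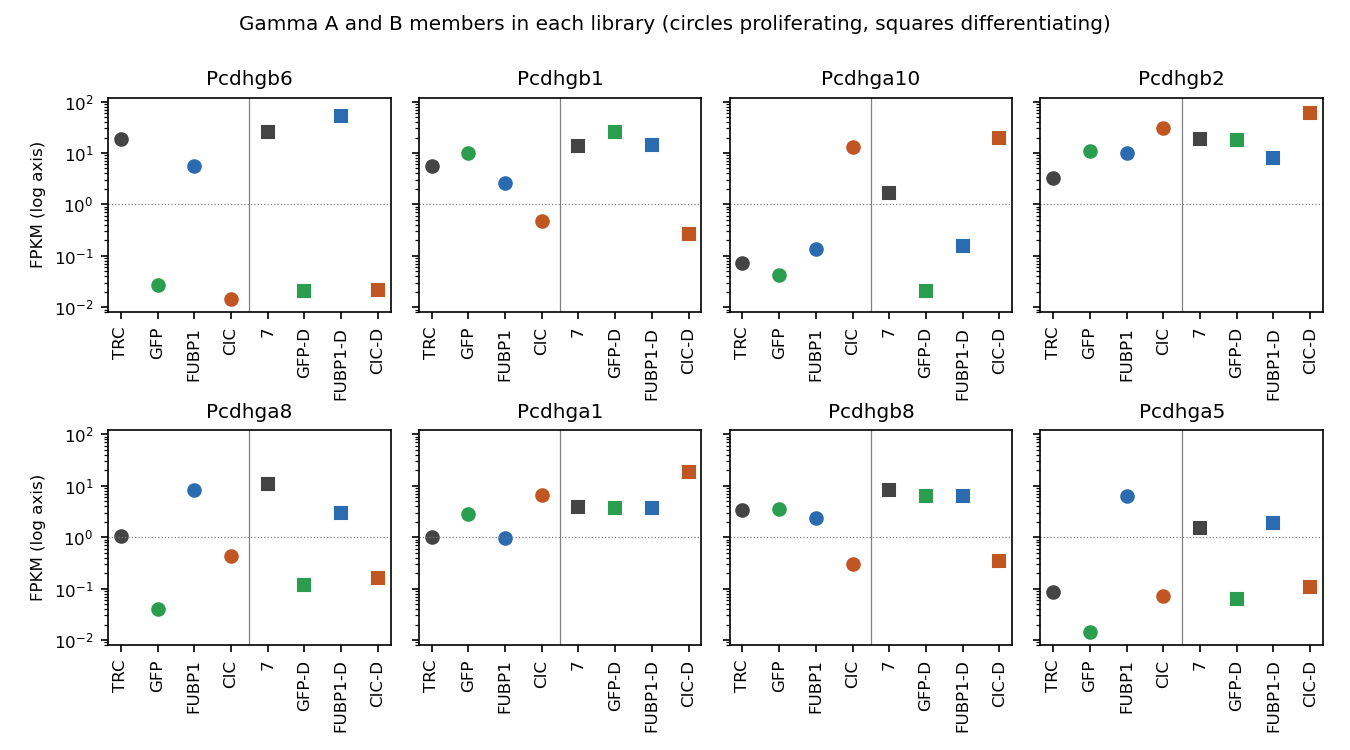
FPKM (log axis) of 8 gamma A and B genes in each library, with circles for proliferating and squares for differentiating libraries and a dotted line at 1 FPKM. Pcdhgb6 lies at 5.51 FPKM or more in 4 libraries and at 0.0276 FPKM or less in the other 4, and Pcdhga10 is highest in CIC and CIC-D (12.8 and 19.7 FPKM).

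The sets of gamma A and B genes at 1 FPKM or more were identical between the 2 states for the CIC and GFP names and not for FUBP1. CIC and CIC-D held the same 3 genes, Pcdhga1, Pcdhgb2 and Pcdhga10. GFP and GFP-D held the same 6, Pcdhga1, Pcdhga3, Pcdhgb1, Pcdhgb2, Pcdhga6 and Pcdhgb8. The identity depends on the threshold. At 5 FPKM GFP held 2 and GFP-D 4 genes, and CIC and CIC-D 3 each. At 10 FPKM CIC held 2 and CIC-D 3 genes, and GFP and GFP-D 2 each. The 7 genes of FUBP1 were all among the 12 of FUBP1-D and also all among the 12 of the library named 7, which is 100% of the first set and 58.3% of each other one. The 8 genes of TRC were all among the 12 of the library named 7 and among the 12 of FUBP1-D, 66.7% of each. CIC-D shared 1 gene, Pcdhgb2, with FUBP1, which is 33.3% of the CIC-D set and 14.3% of the FUBP1 set.

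The levels gave a like order. Across the 19 gamma A and B genes, Pearson's r of log2(FPKM + 1) was 0.994 between GFP and GFP-D and 0.990 between CIC and CIC-D. The relative profiles of the proliferating and the differentiating library of these names were thus nearly alike, although 5 days of differentiation medium lay between the states. The levels were not, as the sums went from 34.3 to 64.3 FPKM for GFP and from 54.1 to 102 FPKM for CIC. For FUBP1 and FUBP1-D it was 0.658, and both were more like other libraries. FUBP1 was most like the library named 7 (0.787) and FUBP1-D most like TRC (0.938). TRC and the library named 7, which are both NT but share no name, reached 0.871. The lowest value was 0.0315, between TRC and CIC-D. The correlations are across genes that share sequence and library and are given as a description.

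Over all 11968 rows that passed the filter, each library was most like a library of its own state. TRC was most like FUBP1 (0.980) and the library named 7 most like FUBP1-D (0.959), while libraries of the same name in the 2 states reached 0.810 to 0.881. After the mean of each state was removed, the same-name pairs were also alike over all rows, with r of 0.510 for GFP, 0.419 for CIC and 0.333 for FUBP1. The other pairs across states ran from -0.32 to 0.418, the highest being TRC with FUBP1-D. Over the gamma A and B genes the same-name values after this step were 0.959, 0.976 and 0.404. The other pairs across states there ran from -0.839 to 0.869, the highest being TRC with FUBP1-D. TRC with the library named 7 (0.656) and FUBP1 with the library named 7 (0.605) also lay above the same-name value of FUBP1. Without this step the 21 beta genes with a value lay between. Their r was then 0.885 for GFP and GFP-D, 0.832 for CIC and CIC-D, 0.754 for FUBP1 and FUBP1-D, and 0.931 for TRC and FUBP1-D. After the step the same-name values of the beta genes were 0.674 for GFP, 0.710 for CIC and -0.341 for FUBP1. The value for FUBP1 was thus below that of both other sets. The difference between the gamma genes and all rows in this respect was not tested. The labels do not say whether libraries of the same name came from the same cells, so the culture and its hairpin cannot be told apart.

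**Figure D4:**
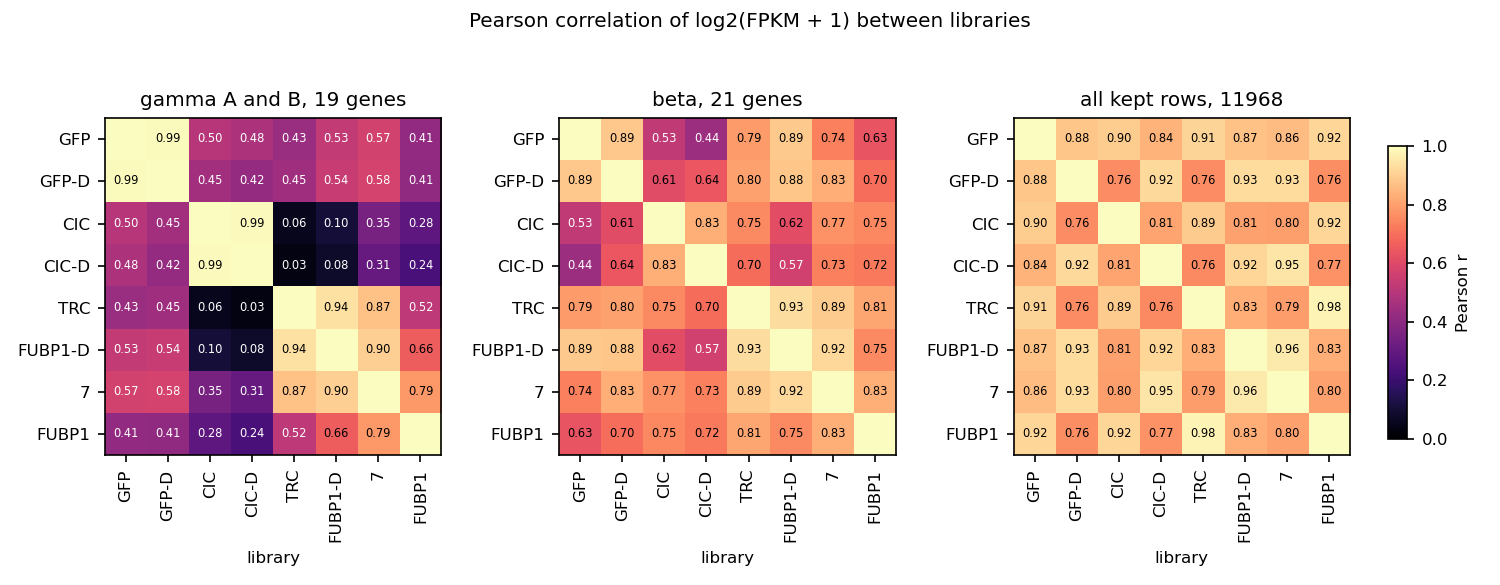
Pearson's r of log2(FPKM + 1) between each pair of the 8 libraries, over 19 gamma A and B genes (left), 21 beta genes (middle) and all 11968 rows that passed the filter (right), with libraries in the same order in each panel. The gamma panel shows bright blocks for GFP with GFP-D and CIC with CIC-D (0.99 each), and in the panel of all rows the same pairs stand at 0.88 and 0.81.

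The first comparison asked which members differ between differentiating and proliferating cells. It was fitted over all 8 libraries with the targeted gene as a term, using limma on log2(FPKM + 1) and Benjamini-Hochberg adjustment over the 11968 rows. Of the 58 members, 35 passed the filter and were tested (1 alpha, 18 beta and 16 gamma), and the other 23 were too low. Pcdhb12, Pcdhga2 and Pcdhga4 lay under 1 FPKM in every proliferating library and passed the filter only through differentiating ones. The filter thus favoured a positive change for them, which bears on the shares of positive changes between the states. In the differentiating libraries 10 members were called higher and 0 lower by limma at an adjusted p under 0.05, and 16 (45.7%) had an unadjusted p under 0.05 where 49.9% of all rows did. The 10 were 28.6% of those tested, where 21.2% of all rows were called higher and 17.7% lower, 38.8% in all. The median change of the 35 was 0.61 against 0.09 over all rows, and 32 of 35 (91.4%) were positive where 54.2% of all rows were. Of the 18 beta genes tested, 7 were called (Pcdhb8, Pcdhb9, Pcdhb10, Pcdhb12, Pcdhb17, Pcdhb18 and Pcdhb20), and their median change was 0.68. Of the 16 gamma genes tested, 3 were called (Pcdhga1, Pcdhgb8 and Pcdhgc3), and their median change was 0.53.

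Pcdhgc3 rose by 0.95 (SE 0.22, adjusted p = 0.0154, limma), from 265 ± 79.3 to 495 ± 77.3 FPKM (SD over 4 libraries that differ in hairpin). Pcdhga1 measured 1.03, 2.78, 0.954 and 6.65 FPKM in the proliferating libraries and 3.84, 3.64, 3.64 and 18.7 FPKM in the differentiating ones, and rose by 1.04 (SE 0.26, adjusted p = 0.0173, limma). Its states overlapped, because CIC lay above 3 differentiating libraries. Pcdhb9, with the levels given above, rose by 1.31 (SE 0.33, adjusted p = 0.0192, limma), and every differentiating library lay above every proliferating one. Pcdhb20 measured 1.58, 1.86, 1.58 and 1.52 FPKM and then 2.59, 3.01, 6.15 and 4.002 FPKM, a rise of 0.86 (SE 0.23, adjusted p = 0.0253, limma). Pcdhb12 measured 0.286, 0.377, 0.376 and 0.574 FPKM and then 1.12, 1.30, 1.29 and 1.40 FPKM, a rise of 0.70 (SE 0.19, adjusted p = 0.0254, limma). Both stood apart by state in all 8 libraries, and Pcdhb20 was nearly even over the proliferating ones. Pcdhb12 was tested only because of its differentiating values, so its call and its separation by state are a description.

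Pcdhb17 measured 4.66, 5.11, 3.83 and 3.82 FPKM and then 6.09, 6.65, 14.8 and 10.1 FPKM, a rise of 0.89 (SE 0.27). Pcdhb18 measured 1.55, 1.12, 1.64 and 1.13 FPKM and then 3.25, 1.77, 6.35 and 2.11 FPKM, a rise of 0.79 (SE 0.26). Pcdhb10 measured 0.265, 0.400, 1.09 and 0.383 FPKM and then 1.33, 1.78, 2.04 and 0.695 FPKM, a rise of 0.67 (SE 0.22). FUBP1-D was the highest library for all 3. Pcdhb8 measured 0.383, 0.161, 0.418 and 1.54 FPKM and then 1.17, 0.908, 1.19 and 3.47 FPKM, a rise of 0.70 (SE 0.20). Pcdhgb8 measured 3.38, 3.54, 2.39 and 0.3002 FPKM and then 8.27, 6.31, 6.27 and 0.340 FPKM, a rise of 0.73 (SE 0.24). In CIC-D it stayed close to CIC, so its rise came from the other 6 libraries. Adjusted p-values of these 5 from limma lay between 0.0278 and 0.0475. Among the proliferating libraries Pcdhb8 reached 1 FPKM in CIC alone and Pcdhb10 in FUBP1 alone, so both needed differentiating libraries to pass the filter. Pcdhb22 just missed the threshold (0.84, SE 0.29, adjusted p = 0.0518, limma). Altogether 6 members (Pcdhgc3, Pcdhb9, Pcdhb12, Pcdhb17, Pcdhb18 and Pcdhb20) had all 4 differentiating libraries above all 4 proliferating ones, which is 17.1% of the 35 and close to the 20.1% of all rows that did.

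Pcdhac2 (-0.31, SE 0.32) and Pcdhgc4 (-0.09, SE 0.33) had negative changes that did not pass the test. Pcdhgb6 (0.88, SE 1.26) and Pcdhga10 (0.48, SE 0.33) did not pass either. With libraries of the same name as a block, 5 of these calls were lost by limma: Pcdhb8 (adjusted p = 0.0601), Pcdhb10 (0.118), Pcdhb12 (0.0656), Pcdhb18 (0.0811) and Pcdhgb8 (0.147). The count of 10 was 6 without TRC, 5 without GFP-D, 3 without CIC or CIC-D and 2 without FUBP1 or FUBP1-D. With quantile normalization it was 2 (Pcdhga1 and Pcdhgc3), and 26 of 35 changes were positive. Pcdhgc3 was past the threshold in 18 of 21 alternatives and Pcdhb10 in 4 of 20. These alternatives are not all separate. Leaving out FUBP1, FUBP1-D or both gave the same changes, because a lone library of a label is taken up by its own term. The same held for CIC, CIC-D or both. Members called in the alternatives were also not always among the 10. The summed astrocyte markers and the summed oligodendrocyte lineage markers were higher in the differentiating libraries too, and their part in these results was not tested.

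**Figure D5:**
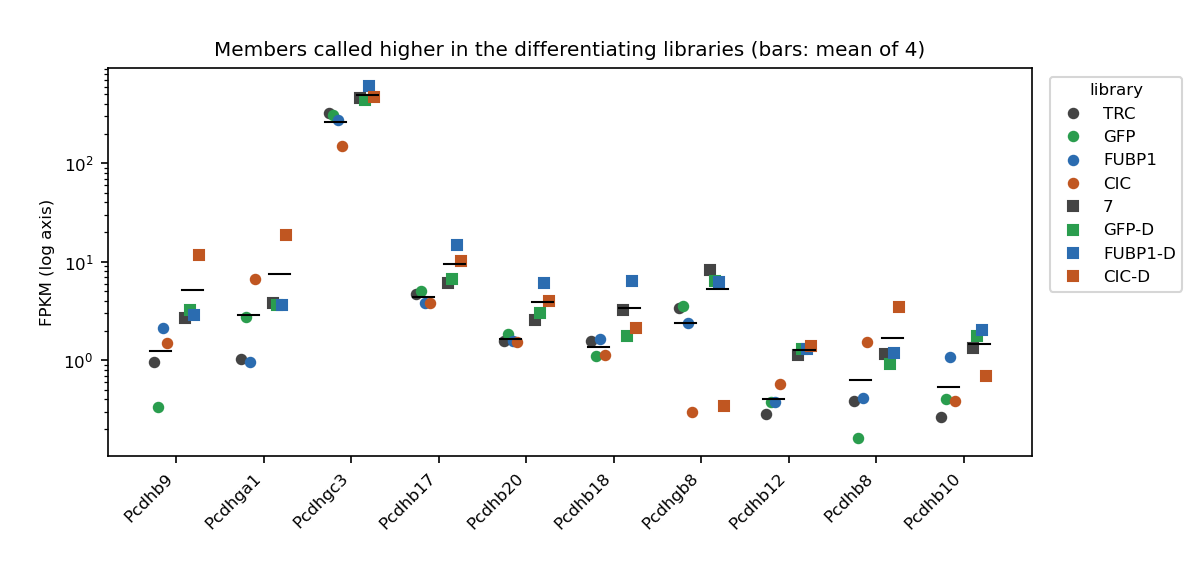
FPKM (log axis) of the 10 genes called higher in differentiating libraries, with circles for the 4 proliferating and squares for the 4 differentiating libraries, and a bar at the mean of each 4. Pcdhgc3 moves from a mean of 265 to 495 FPKM, and Pcdhb12, the lowest of the 10 in the proliferating libraries, from 0.403 ± 0.122 to 1.28 ± 0.116 FPKM (SD, n = 4 each).

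Within the NT libraries alone, 0 of 35 members were called by limma, where 1.46% of all rows were, and 6 members (17.1%) had an unadjusted p under 0.05 where 26.1% of all rows did. The changes were positive in 34 of 35, with a median of 0.55 against 0.08 over all rows. The smallest adjusted p was 0.114 (Pcdhb9, limma). This fit rests on 2 libraries per state and 2 residual degrees of freedom. Without GFP 1 member, Pcdhgb2, was called.

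The second comparison set the libraries labelled CIC against NT, with state as a term. It called 1 of 35 members, Pcdhga10, higher by 3.67 (SE 0.40, adjusted p = 0.0294, limma), where 0.0167% of all rows were called higher and 0.0919% lower, 0.109% in all. The difference was positive in both states, as the levels above show. The adjusted p lay between 0.00699 and 0.346 over 17 alternatives and was under 0.05 in 5 of them. The call held without the library named 7 (adjusted p = 0.00699, limma) and was lost on leaving out any of the other 7 libraries. Without TRC it was 0.0556, without GFP 0.123, without FUBP1 0.0765, without CIC 0.346, without GFP-D 0.0653, without FUBP1-D 0.0754 and without CIC-D 0.101, while the difference stayed between 3.43 and 3.99.

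The next members by adjusted p did not pass. Pcdhgb8 differed by -2.20 (SE 0.29, adjusted p = 0.0711, limma), Pcdhgb1 by -3.25 (SE 0.50, adjusted p = 0.108, limma) and Pcdhga1 by 1.76 (SE 0.31, adjusted p = 0.130, limma). In all, 10 members (28.6%) had an unadjusted p under 0.05, where 11.4% of all rows did. Both CIC libraries lay above the other 6 for 5 members, Pcdhga1, Pcdhgb2, Pcdhga10, Pcdhb5 and Pcdhb8, which is 14.3% of those tested against 3.18% of all rows. They lay below the other 6 for 4 members, Pcdhga3, Pcdhgb1, Pcdhga6 and Pcdhgb8, 11.4% against 5.82% of all rows. With 1 library per state, a property of the CIC cultures and an effect of the hairpin cannot be told apart.

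The third comparison set the libraries labelled FUBP1 against the same NT libraries, which both knockdown comparisons share. It called 0 of 35 members and 0 of 11968 rows by limma, a share of 0%, and 2 members (5.71%) had an unadjusted p under 0.05 where 2.14% of all rows did. These were Pcdhga5 (1.81, SE 0.51) and Pcdhb11 (0.72, SE 0.29), named after their values were seen, and they were also the 2 members for which both FUBP1 libraries lay above the other 6 (5.71% against 1.22% of all rows). No member had both FUBP1 libraries below the other 6, as 0.577% of all rows did. Of the members that led the CIC comparison, Pcdhga1 stood at -0.27 (SE 0.31), Pcdhgb1 at -0.82 (SE 0.50) and Pcdhgb8 at -0.29 (SE 0.29) here. Whether a knockdown difference changed with state was tested as an interaction, and 0 of 35 members were called by limma for FUBP1 or for CIC, with 1 member (2.86%) each at an unadjusted p under 0.05, where 0.827% of all rows were for FUBP1 and 4.28% for CIC.

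The last comparison asked how far libraries of the same label, NT, differ among themselves, as GFP and GFP-D against TRC and the library named 7. By limma 0 of 35 members were called, where 0.309% of all rows were called higher and 0.167% lower, 0.476% in all, and 7 members (20.0%) had an unadjusted p under 0.05 against 11.7% of all rows. Pcdhgb6 differed by -4.47 (SE 0.72, adjusted p = 0.0744, limma), and Pcdhgb4 by -2.52 (SE 0.54, adjusted p = 0.134, limma). Over 15 alternatives the adjusted p of Pcdhgb6 from limma ran from 0.00848 to 0.317, and it was called without FUBP1, without FUBP1-D and with a pseudocount of 0.1. Without FUBP1 or FUBP1-D the count of members called was 2. Both GFP-named libraries lay below TRC and the library named 7 for 10 members, 28.6% against 12.6% of all rows, and above them for 6, 17.1% against 11.3%.

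The genes that work with or regulate the clusters were counted from 4 lists. On differentiation 38.8% of all rows were called in either direction (21.2% higher and 17.7% lower), and the counts of the lists below are to be read against these shares. Of 8 non-clustered protocadherins tested, relatives that lie outside the clusters, 1 was called higher and 1 lower in the differentiating libraries by limma. Pcdh1 rose by 1.37 (SE 0.37) from 11.5 ± 3.66 to 33.1 ± 18.9 FPKM, and Pcdh7 fell by 0.83 (SE 0.18) from 20.1 ± 1.10 to 10.9 ± 1.96 FPKM (SD, n = 4 each). Pcdh9 was called lower in the GFP-named NT libraries, by -2.01 (SE 0.24, adjusted p = 0.0260, limma). It measured 9.58, 1.55, 9.52 and 7.97 FPKM and then 10.1, 1.85, 11.4 and 7.89 FPKM, low in GFP and GFP-D and even in the other 6. Pcdh10, named after its values were seen, was at 5.34 FPKM in CIC, 8.44 FPKM in CIC-D, 2.90 FPKM in the library named 7 and at most 0.248 FPKM elsewhere. The same 3 libraries were the highest for Pcdhga10.

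Of 11 genes of CTCF and cohesin, the machinery that loops protocadherin promoters to their enhancers, 3 were called lower and 1 higher on differentiation by limma, a count close to what 38.8% of all rows called would give. Smc1a (-0.98, SE 0.18), Rad21 (-0.76, SE 0.20) and Pds5a (-0.69, SE 0.22) fell, and the cohesin loader Mau2 rose by 0.65 (SE 0.20). Ctcf itself stood at 33.8 ± 8.12 and 22.2 ± 2.06 FPKM and was not called. Of 17 genes of promoter silencing, 4 were called lower and 2 higher by limma, again close to the 38.8% of all rows. The maintenance DNA methylation genes Uhrf1 (-3.74, SE 0.38, from 48.6 ± 30.6 to 2.18 ± 1.00 FPKM) and Dnmt1 (-1.57, SE 0.23, from 66.4 ± 22.1 to 20.7 ± 1.61 FPKM) fell, as did the co-repressor genes Trim28 (-1.10, SE 0.25) and Rcor1 (-0.84, SE 0.23). Tet2, which oxidizes methylated cytosine, rose by 1.08 (SE 0.28), and Dnmt3b, a gene of new DNA methylation, rose by 0.88 (SE 0.22). Rcor1 and Dnmt3b fell outside the naming rule and were named after their values were seen. Smchd1, a known repressor of the clusters, stood at 20.2 ± 4.58 and 13.3 ± 1.60 FPKM and was not called.

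Of 15 tested genes of proteins that bind or cut clustered protocadherins, 2 were called higher and 1 lower by limma, fewer than the 38.8% of all rows would give. Psen2, a gamma-secretase subunit that cuts the protein within the membrane, rose by 1.93 (SE 0.25), from 1.76 ± 0.881 to 9.06 ± 0.658 FPKM. Marcks, whose product is an actin-linked substrate of protein kinase C, rose by 0.66 (SE 0.20), and the kinase gene Ptk2, whose product binds the constant domain, fell by 0.51 (SE 0.16). In the comparisons of FUBP1 and CIC with NT, 0 genes of the 4 lists were called by limma. The lists and members were chosen with earlier results of these data known.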

How the data were processed

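The authors deposited 1 table of FPKM values for 20793 rows in 8 libraries, with positions on build mm9. TopHat2 2.0.11, Cufflinks 2.1.1, cutadapt and bcl2fastq 2.17 were used, per the submitters' processing notes. The settings, the annotation and the use of strand were not given in the sources used here. The table holds no fragment counts, so the depth per library is unknown and no counting interval is given. Library sums lay between 426984 and 541608 FPKM.

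Values were used as deposited, as log2(FPKM + 1), a scale on which changes of low genes are understated. The 11968 rows that reached 1 FPKM in 2 libraries or more were tested with limma 3.58.1 in R 4.3.3, with a mean-variance trend, two-sided, and Benjamini-Hochberg adjustment over all of them at 0.05. Differentiation and the FUBP1 and CIC labels were fitted additively, with state and targeted gene as terms (4 residual degrees of freedom). Differentiation within NT and the interactions came from 6 group means (2 residual degrees of freedom, both from NT pairs), and the comparison of NT libraries from a model with 3. The additive model treats libraries of 1 name as independent. The fit was tested on simulated data first. Replicate numbers of the NT libraries follow the order of the samples only and pair nothing.

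Named members were those called in any comparison, the 3 per cluster of highest mean and of largest range, and the C-type genes. Of the gene lists, those called were named, up to the 4 largest changes per list and comparison. Any other gene singled out was chosen after its values were seen. The members and lists were chosen with earlier results of these data known. Sequence shared between members was counted in GENCODE M21 transcripts, and positions in the table, whose starts count from 0, were raised by 1. No sequence is printed here. Alternatives covered the pseudocount, the filter, scaling, the trend, replicate blocks and leaving out libraries.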

Additional observations from a re-analysis of the deposited data

How the results depend on the processing

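None of the changes of single members that were followed over the alternatives reversed, and 269 such values kept their side of the threshold, 113 fell short of it and 8 newly passed it. The 269 include members that were not called at first and stayed so, while all 113 belong to called members. More alternatives lost the call than kept it for Pcdhb8, Pcdhb10, Pcdhb12, Pcdhb18, Pcdhgb8 and Pcdhga10. More kept it for Pcdhb9, Pcdhb17, Pcdhb20, Pcdhga1 and Pcdhgc3. For differentiation over all arms, 10 members were called as reported. The count was 3 with a filter at 5 FPKM (14 members tested), 2 with quantile normalization, 5 from 6 group means, 2 without both FUBP1 libraries, 6 without both GFP-named libraries and 3 without both CIC libraries, and between 2 and 9 on leaving out 1 library. With a replicate block for libraries of the same name it was 6, and with a replicate block for the NT numbers 12. The NT numbers share no stated source. The difference of GFP from TRC and that of GFP-D from the library named 7 correlated at 0.347 over 11968 rows and 0.815 over the 35 members, which with 2 groups of 2 is only a hint. For the CIC label the count of 1 became 2 with a pseudocount of 0.1, where Pcdhgb1 and Pcdhgb8 were called and Pcdhga10 was not. It was 0 without a filter, with a filter at 5 FPKM, without both FUBP1 libraries and without both GFP-named ones. On leaving out 1 NT library it lay between 0 and 1. For differentiation within NT it was 0 to 1 on leaving out 1 library. For the GFP-named against the other NT libraries it was 1 with a pseudocount of 0.1 and 0 to 2 on leaving out 1 library. The fits of FUBP1 against NT and of the interactions called 0 members under any alternative that could be fitted by limma. The unadjusted p was under 0.05 for 0 to 6 members there, and 4 interaction fits without a knockdown library could not be fitted. The cause of these shifts was not tested, except that fewer libraries or rows enter the fits with a stricter filter or a library left out.

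Counts of members and libraries with a member at the threshold depend on it. At 10 FPKM there were 2 such pairs for alpha, 3 for beta and 25 for gamma, and at 5 FPKM 16 for beta and 36 for gamma. With a pseudocount of 0.1 the likeness over gamma A and B genes of GFP with GFP-D (0.985) and CIC with CIC-D (0.976) was close to the reported values. That of FUBP1 with FUBP1-D moved more, to 0.755 from 0.658, and stayed below the other 2. The main limits are the unknown depth, 1 library per knockdown and state, and constant exons shared among alpha and gamma genes, so that values of single genes there depend on how fragments were assigned.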
